A study of Ovis aries with 7 samples.

Results

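CREM, CEBPB, NFIL3 and RGS2 are 4 genes whose transcripts are known to rise soon after cyclic AMP (cAMP) signalling is switched on in many cell types. They were measured here in the hypothalamus of fetal sheep after a short period of maternal hypoxia. All probes were taken whose gene name, or whose description where the gene name is an accession, is 1 of these 4 genes. This gave 9 of the 15008 distinct probes of the array, or 4 of the 957 genes that could be named. CREM had 4 probes, RGS2 had 3, and CEBPB and NFIL3 had 1 each. The NFIL3 probe carries no gene symbol and was found only by the protein name in its description.

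The array is a 1-colour Agilent sheep oligonucleotide array, hybridised with Cy3-labelled RNA of 1 fetus per array. Both groups were late-gestation fetuses carrying chronic catheters. In the hypoxia group of 3 fetuses, the oxygen in the gas breathed by the ewe was lowered for 30 min, and normal oxygen was then given for 30 min. The 4 control fetuses had normal oxygen for both periods, and in both groups the whole hypothalamus was collected at 60 min from the start, so each fetus gave 1 time point.

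When a hormone or transmitter binds a receptor coupled to the stimulatory G protein Gs, adenylyl cyclase makes cAMP, cAMP frees the catalytic subunit of protein kinase A, and that kinase phosphorylates the transcription factor CREB. CREB then switches on a first set of genes, several of which feed back on the same pathway. CREM encodes CREM proteins of the CREB family, among them the short repressor forms called ICER that shut cAMP-driven genes off again. CEBPB encodes a C/EBP transcription factor of acute-phase and interleukin responses, NFIL3 encodes a repressor linked to interleukin 3 and to the circadian clock, and RGS2 encodes a protein that speeds up the switching off of Gq and dampens receptor signalling.

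The level of a probe is given as the log2 of its processed signal minus the log2 of the 75th percentile of signal on that array, so that 0 is the 75th percentile and 1 unit is a doubling. Levels of different probes are not compared, because probes differ in how well they bind. Between 83.1% and 84.8% of the spots on the hypoxia arrays, and between 77.2% and 86.4% on the control arrays, exceeded background clearly. The hypoxia arrays filled 1 slide, controls 1 and 2 were on another and controls 3 and 4 on the last, each with its own scan time, so slide and hypoxia cannot be told apart. A probe was tested with limma, a linear model over all probes, where it was well above background on at least 3 of the 7 arrays. This held for 12711 probes, of which 7 belong to the 4 genes. The array number limits the precision. With 3 against 4, the exact 2-sided permutation test used here, which doubles the smaller tail, can give no p below 0.0571.

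All 7 tested probes of the 4 genes had a higher mean level after hypoxia, where 54.7% of all 12711 tested probes did, with a median difference of 0.028. None of the 7 passed an adjusted p of 0.05 (Benjamini-Hochberg over all tested probes in limma), a threshold that 2 of the 12711 passed (0.0157%). At an unadjusted p under 0.05 in limma, 2 of the 7 were higher, the main probes of CREM and RGS2. Over the whole array 8.75% of the tested probes were higher at that level and 6.91% were lower. The same 2 of the 7 had every hypoxia array above every control array, as 8.76% of all tested probes did. The 7 probes are not independent of each other, since CREM has 2 of them and RGS2 has 3. The 4 genes were chosen with earlier results of these data known, so their shared direction is not independent evidence. Less RNA per cell and fewer cells of a type cannot be told apart in RNA of a whole tissue, and the same holds for more of either.

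**Figure D1:**
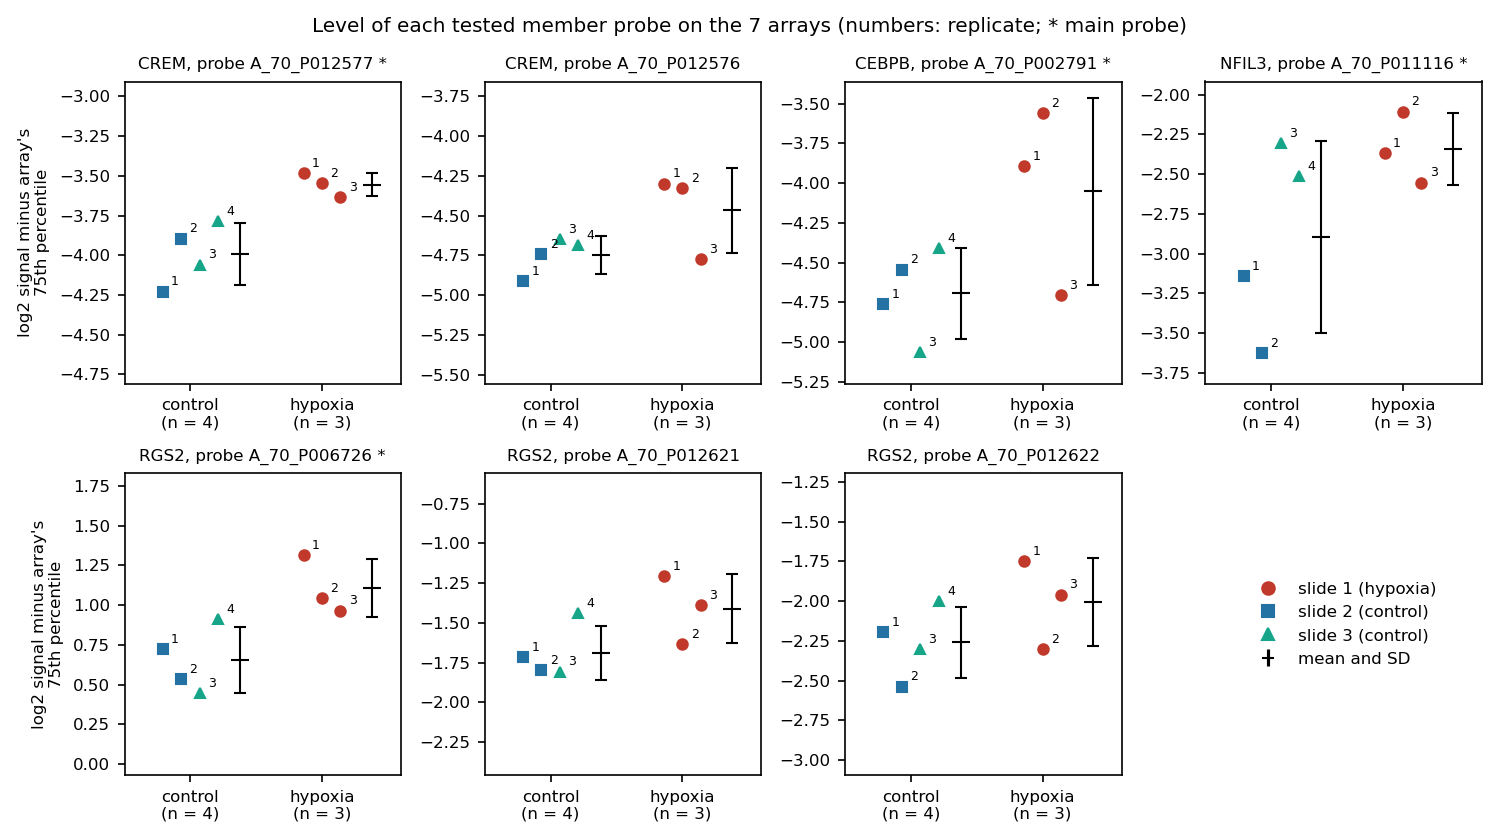
Level of each tested probe of the 4 genes on the 7 arrays, as log2 signal minus the array's 75th percentile, with points for single fetuses (coloured by slide, numbered by replicate) and the mean with its SD beside each group. The hypoxia points lie above every control point for the CREM probe A_70_P012577 and the RGS2 probe A_70_P006726, and the groups overlap for the other 5 probes.

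CREM was followed by 2 probes well above background on all 7 arrays and by 2 that were dim. The main probe (A_70_P012577) and a second one (A_70_P012576) come from the sheep CREM mRNA, share 14 bases and together span 106 bases. Both are shown because they lie in the stretch that encodes the leucine zipper, the part through which CREM pairs with itself and with CREB, and capitals mark leucine codons that follow each other at every 7th codon. Activator and repressor forms of CREM, ICER included, all carry a zipper, and the gene has alternative exons for it. Which forms these probes match, and whether they match CREB transcripts, was not tested.
CREM A_70_P012577: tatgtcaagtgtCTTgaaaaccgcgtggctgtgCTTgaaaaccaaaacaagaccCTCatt
CREM A_70_P012576: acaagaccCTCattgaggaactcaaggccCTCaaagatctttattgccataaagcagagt
Joined at the shared bases, the probes read through 35 whole codons with 0 stop codons and hold 4 such leucine codons. A run of 3 leucine codons at this spacing, in a frame with no stop codon on the probe's own strand, occurs in 1.1% of the array's 15008 probes.

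The CREM probe A_70_P012577 was at -3.49, -3.55 and -3.63 in hypoxia 1 to 3. In controls 1 to 4 it was at -4.23, -3.90, -4.06 and -3.79. The hypoxia fetuses lay close together and all of them above the highest control, which was control 4. The mean was -3.55 ± 0.074 (SD, n = 3) after hypoxia and -3.99 ± 0.19 (SD, n = 4) in controls. The difference of 0.44 (SE 0.13, 95% interval 0.14 to 0.74) is a 1.35-fold higher signal, with an adjusted p = 0.215 in limma and an unadjusted p = 0.0106. The exact permutation test gave p = 0.0571, the smallest it can give here. The signal itself was low, at 5.33% to 8.93% of the array's 75th percentile, with a scanner error estimate of at most 10.7% of the signal.

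The second CREM probe, A_70_P012576, was at -4.30, -4.33 and -4.78 after hypoxia and at -4.91, -4.74, -4.65 and -4.69 in controls 1 to 4. Hypoxia 1 and 2 were above all controls, whereas hypoxia 3 was below all controls but control 1. Its difference was 0.28 (SE 0.15, adjusted p = 0.392 in limma), and 0.43 (SE 0.12, adjusted p = 0.248) without hypoxia 3, and 0.17 with quantile normalization. On both probes hypoxia 1 was the highest of the 7 arrays and hypoxia 3 the lowest of the hypoxia arrays. The mean of both probes on each array gave a difference of 0.36 (SE 0.13). The other CREM probes come from an expressed sequence tag and share 20 bases with each other. The same tag is also listed for the main and the second CREM probe. A_70_P024297 was well above background on 1 of 3 hypoxia and 1 of 4 control arrays, A_70_P024296 on 0 of 3 and 0 of 4, and neither was tested.

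CEBPB had 1 probe, A_70_P002791, well above background on all 7 arrays. It too lies in the coding part for a leucine zipper, here that of C/EBP beta, and is shown for comparison with the CREM zipper. Capitals again mark leucine codons at every 7th codon, of which the probe holds 3.
CEBPB A_70_P002791: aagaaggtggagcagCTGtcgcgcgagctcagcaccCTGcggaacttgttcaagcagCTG
The longest run that this probe shares with the probe of any other gene is 13 bases, and for the 9 probes of the 4 genes this length was 12 to 14 bases. The GC content of the CEBPB probe, 60.0%, is the highest of the 9, against 36.7% to 45.0% for the others.

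CEBPB was at -3.89, -3.56 and -4.71 in hypoxia 1 to 3 and at -4.76, -4.54, -5.06 and -4.41 in controls 1 to 4. Hypoxia 1 and 2 were above all controls, and hypoxia 3 lay inside the control range. The means were -4.05 ± 0.59 (SD, n = 3) and -4.69 ± 0.29 (SD, n = 4). The difference of 0.64 (SE 0.28, 95% interval -0.020 to 1.30), 1.56-fold, was the highest of the 4 genes, and its interval includes 0 (adjusted p = 0.330 in limma, exact permutation p = 0.171). Single fetuses moved this value by over 1.5 times. It was 0.97 (SE 0.21, adjusted p = 0.189) without hypoxia 3 and 0.39 (SE 0.28, adjusted p = 0.593) without hypoxia 2, in limma.

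NFIL3, whose product binds the same kind of DNA site as the PAR bZIP activators of the clock and represses there, was measured by A_70_P011116. It was at -2.37, -2.11 and -2.55 in hypoxia 1 to 3. In controls 1 to 4 it was at -3.14, -3.63, -2.30 and -2.51. Hypoxia 2 was the highest array, but controls 3 and 4 lay among the hypoxia values, and controls 1 and 2 lay far below. The difference of 0.55 (SE 0.32, 95% interval -0.18 to 1.29, 1.47-fold) had an adjusted p = 0.422 in limma and an exact permutation p = 0.286.

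The controls of NFIL3 divided by slide. Their mean was -3.38 on the slide of controls 1 and 2 and -2.41 on that of controls 3 and 4, a gap of 0.98 between control slides that was wider than the difference between hypoxia and control. Against controls 1 and 2 alone the difference was 1.04 (SE 0.21, adjusted p = 0.0940 in limma), and against controls 3 and 4 alone it was 0.066 (SE 0.17, adjusted p = 0.889). It was 0.31 without control 2 and 0.75 without control 3. For the main probes of CREM, CEBPB and RGS2 the gap between control slides was 0.14, -0.083 and 0.049, the slide of controls 3 and 4 minus the other.

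RGS2 had 3 probes, all well above background on the 7 arrays. A pair of them lies in the coding sequence and overlaps, and it is shown here because its probes read neighbouring, partly identical stretches of 1 transcript. Capitals mark the 20 bases that the pair shares, and the pair spans 100 bases.
RGS2 A_70_P012622: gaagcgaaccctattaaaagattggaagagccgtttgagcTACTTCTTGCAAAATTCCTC
RGS2 A_70_P012621: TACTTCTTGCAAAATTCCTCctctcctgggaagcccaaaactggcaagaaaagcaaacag
The main probe, A_70_P006726, does not overlap them and is the main one because the probe with the highest mean signal was taken for each gene.

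RGS2 probe A_70_P006726 was at 1.32, 1.04 and 0.97 in hypoxia 1 to 3 and at 0.73, 0.54, 0.45 and 0.91 in controls 1 to 4. All hypoxia fetuses were above all controls, though narrowly, with hypoxia 3 just above control 4. The means were 1.11 ± 0.18 (SD, n = 3) and 0.65 ± 0.21 (SD, n = 4). The difference of 0.45 (SE 0.15, 95% interval 0.10 to 0.80), 1.37-fold, had an adjusted p = 0.246 and an unadjusted p = 0.0178 in limma. The exact permutation p was 0.0571. Without hypoxia 1 the difference was 0.35 (SE 0.16, unadjusted p = 0.0723 in limma), and against controls 3 and 4 alone it was 0.43 (SE 0.19, unadjusted p = 0.0707), so the unadjusted call was lost in both.

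The coding pair of RGS2 was also higher on average, with overlapping groups. A_70_P012621 was at -1.21, -1.64 and -1.39 after hypoxia and at -1.71, -1.80, -1.81 and -1.44 in controls 1 to 4. A_70_P012622 was at -1.75, -2.30 and -1.96 after hypoxia and at -2.20, -2.54, -2.30 and -2.00 in controls 1 to 4. On both, hypoxia 1 was the highest array, hypoxia 2 the lowest hypoxia array and control 4 the highest control. Their differences were 0.28 (SE 0.15, adjusted p = 0.390 in limma) and 0.26 (SE 0.18, adjusted p = 0.495). Without hypoxia 1 they were 0.18 and 0.13, and without hypoxia 2 they were 0.39 and 0.40. The second was also 0.16 without control 2, and 0.15 against controls 3 and 4 alone. The mean of the 3 RGS2 probes differed by 0.33 (SE 0.15, unadjusted p = 0.0617 in limma), so that the unadjusted call rests on the choice of the main probe.

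**Figure D2:**
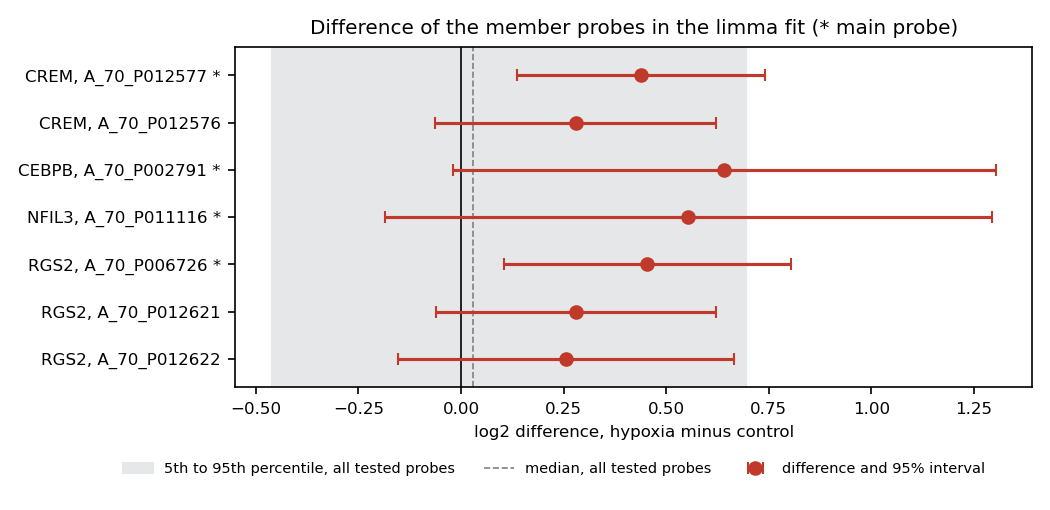
Log2 difference, hypoxia minus control, of the 7 tested probes with the 95% interval from limma (3 against 4 fetuses), over a grey band from the 5th to the 95th percentile of all 12711 tested probes (-0.46 to 0.69) and a dashed line at their median. All 7 points lie above 0 and inside the band, and the intervals of the CREM probe A_70_P012577 and the RGS2 probe A_70_P006726 do not reach 0.

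The highest fetus was not the same for all 4 genes, whereas the lowest hypoxia fetus was the same on their main probes. Hypoxia 1 was highest for CREM and RGS2, and hypoxia 2 for CEBPB and NFIL3. Hypoxia 3 was the lowest hypoxia array on 5 of the 7 probes, among them the main probe of each gene. Among controls, control 4 was highest for the main probes of CREM, CEBPB and RGS2, and control 3 for NFIL3. The differences of the 7 probes lay inside the 5th to 95th percentile of all tested probes, which was -0.46 to 0.69.

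The direction did not turn for any of the 7 probes in any of the 20 or 21 alternative settings. The difference of the main CREM probe ranged from 0.33 with normexp background correction to 0.51 against controls 1 and 2 alone, and its unadjusted p in limma was under 0.05 in 20 of 21 settings. The main RGS2 probe ranged from 0.35 without hypoxia 1 to 0.54, and the mean of the 3 RGS2 probes gave 0.33. For RGS2, 18 of 21 settings were under that level. The 21 settings of CREM and of RGS2 include the mean of the gene's tested probes. CEBPB ranged from 0.39 to 0.97, with 8 of 20, and NFIL3 from 0.066 to 1.04, with 2 of 20. No probe of the 4 genes passed the adjusted threshold in any setting.

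**Figure D3:**
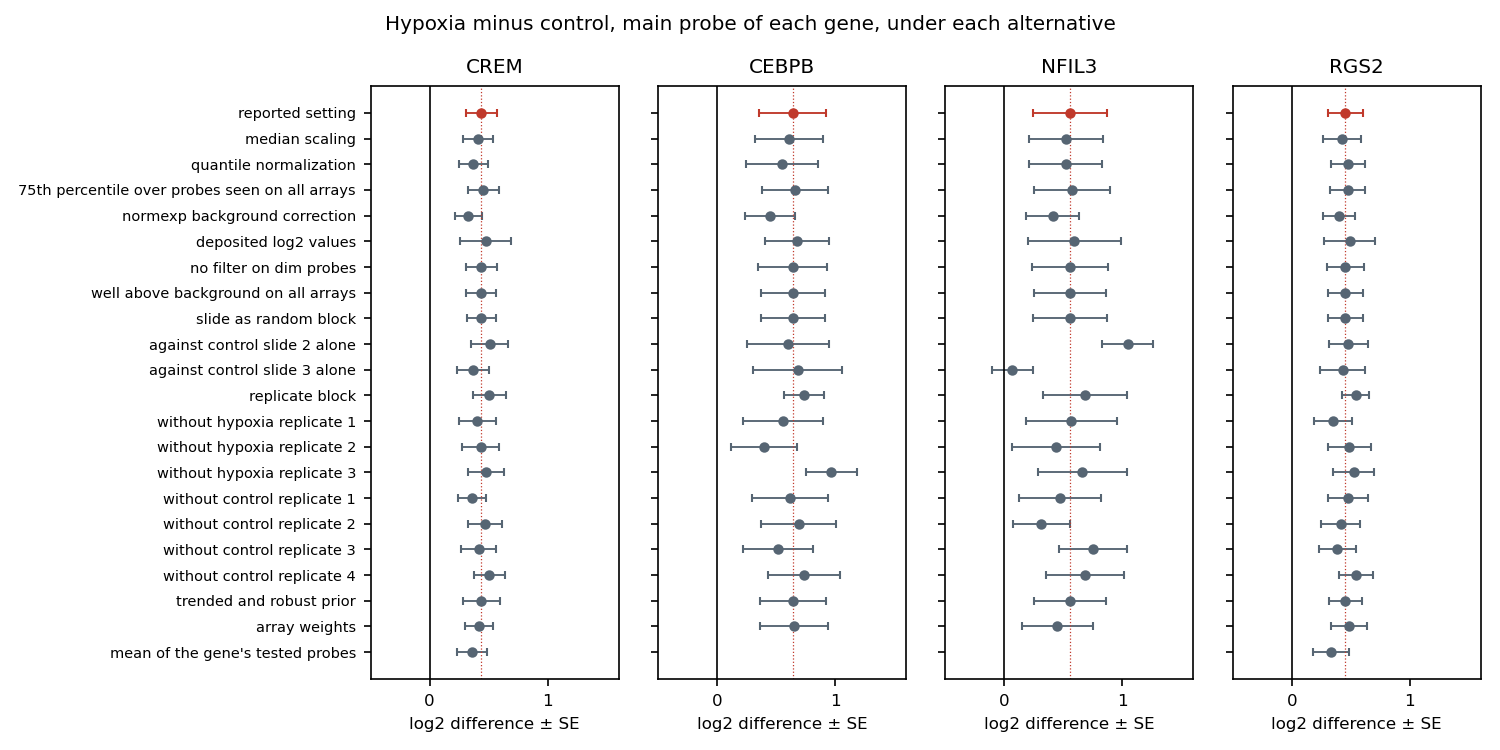
Log2 difference, hypoxia minus control, with its SE for the main probe of CREM, CEBPB, NFIL3 and RGS2 in the reported setting (red) and in each alternative (grey, 1 row a setting). All points lie above 0. CREM and RGS2 stay between 0.33 and 0.54, whereas NFIL3 spans 0.066 to 1.04 between the control slides. For CREM and RGS2, 1 row is the mean of the gene's tested probes and not the main probe.

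The other genes of the pathway and of the families of these 4 genes were taken from 10 lists that hold 225 genes, of which 62 could be named on the array and 59 were tested. Of the 59, 44 were higher and 15 lower after hypoxia, where 54.7% of all tested probes were higher, with a median log2 difference of 0.17 beside 0.028 for all tested probes. In limma, 8 of the 59 were higher and 0 lower at an unadjusted p under 0.05, where 8.75% of all tested probes were higher and 6.91% lower, and 0 passed the adjusted threshold. Of the 8, only CITED2 and NFKBIA stayed under that level in each of the 20 alternatives. Over the alternatives, with 53 or 59 tested, 39 to 47 were higher. The lists were chosen with earlier results of these data known, so their direction is a description and not independent evidence. Most parts of the pathway could not be followed, since 0 of the 17 listed phosphodiesterases, which break cAMP down, and only 1 gene of the list of G proteins and cyclases were named here.

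Upstream of cAMP, 11 of 14 tested Gs-coupled receptors and their ligands were higher, 3 of them at an unadjusted p under 0.05, with a median of 0.22. Over all tested probes the shares were 54.7% and 8.75% and the median 0.028. The smallest p values were those of ADRB3, the beta-3 adrenergic receptor, PTGER2, a receptor for prostaglandin E2, and CRHR1, a receptor for a stress peptide of the hypothalamus. ADRB3 was at -3.85, -3.24 and -3.19 after hypoxia and at -4.42, -4.05, -3.84 and -4.11 in controls 1 to 4. Hypoxia 1 lay just below control 3, so the groups overlapped narrowly. In limma ADRB3 differed by 0.68 (SE 0.20, adjusted p = 0.219), PTGER2 by 0.66 (SE 0.25, adjusted p = 0.277) and CRHR1 by 0.35 (SE 0.15, adjusted p = 0.319). PTGER2 was dim, at a mean of -6.48 after hypoxia and -7.14 in controls, and was not well above background on every array. PTGER2 was 0.19 with normexp and 0.41 with quantile normalization, CRHR1 was 0.22 without hypoxia 3 and 0.19 with either of these methods, and both lost the unadjusted call there. It was also lost for PTGER2 without hypoxia 1 or 2 or control 1, 2 or 3, for CRHR1 without hypoxia 2 or any 1 control, and for ADRB3 against controls 3 and 4 alone. Over all alternatives the unadjusted call was kept in 19 of 20 by ADRB3, in 10 of 19 by PTGER2 and in 4 of 20 by CRHR1. CALM2, which encodes the calcium sensor calmodulin, differed by 0.33 (SE 0.12, adjusted p = 0.266 in limma), with no overlap between groups. It kept the unadjusted call in 14 of 20 alternatives and lost it, among others, without hypoxia 1, control 1 or control 2.

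For the subunits of the kinase the differences were small beside their errors. PRKAR1A, a regulatory subunit of protein kinase A, differed by 0.041 (SE 0.10, adjusted p = 0.872 in limma), and PRKACA, a catalytic subunit, by -0.024 (SE 0.23, adjusted p = 0.971). The sign of both turned in some settings. CREB1 differed by 0.15 (SE 0.096, adjusted p = 0.470), with 0.20 on a second probe, and its relatives ATF4 and ATF6 by 0.17 and 0.073. CREB1 was 0.090 against controls 1 and 2 alone, ATF4 ran from 0.048 without hypoxia 2 to 0.33 without hypoxia 3, and ATF6 turned sign in 3 settings.

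Among 16 other transcripts linked to CREB, 10 were higher and 6 lower, with a median of 0.29, and 2 had an unadjusted p under 0.05. Over all tested probes 54.7% were higher, and 8.75% were higher at that level. CITED2, which encodes a coactivator-binding protein that restrains hypoxia-inducible factor, was at -2.47, -2.35 and -2.42 after hypoxia and at -2.84, -2.79, -2.74 and -2.91 in controls 1 to 4. All hypoxia fetuses were above all controls, with a difference of 0.41 (SE 0.095, adjusted p = 0.162 in limma) and 0.40 on a second probe. NAMPT, an enzyme of NAD synthesis, differed by 0.34 (SE 0.12, adjusted p = 0.253), also with no overlap. It kept the unadjusted call in 15 of 20 alternatives and lost it, among others, without hypoxia 1 or control 3. FOS, a classic immediate early gene, differed by 0.69 (SE 0.31, adjusted p = 0.340 in limma), with 0.90 to 0.93 on its other probes. The difference of FOS moved with the controls used: it was 1.04 against controls 1 and 2 alone, 0.34 against controls 3 and 4 alone and 0.41 without control 1. Controls 1 to 4 were at -0.94, 0.020, 0.41 and 0.078, so control 1 lay far below and control 2 close to control 4.

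Relatives by family were few. No other C/EBP gene than DDIT3, a stress-induced inhibitory member, was named here, and it differed by 0.14 (SE 0.16, adjusted p = 0.683 in limma), between 0.047 without hypoxia 2 and 0.27 without hypoxia 1. Of 7 clock genes and PAR bZIP factors, the latter with the same DNA sites as NFIL3, 6 were higher. Of all tested probes 54.7% were. The median of the 7 was 0.046, close to that of all probes. BHLHE40, a clock repressor, differed by 0.32 (SE 0.11, adjusted p = 0.256 in limma) with no overlap between groups. It kept the unadjusted call in 11 of 20 alternatives and lost it, among others, without hypoxia 2, hypoxia 3 or control 3. PER3 and CLOCK differed by 0.18 and 0.14. Without 1 array PER3 ran from -0.0025 to 0.29 (without control 3 and control 2) and CLOCK from 0.0053 to 0.33 (without hypoxia 1 and hypoxia 2).

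No other RGS gene could be named here. Of 4 genes of the RGS and Gq list, 3 were higher, and none had an unadjusted p under 0.05 in limma. Over all tested probes 54.7% were higher, and 8.75% were higher at that level. The Gq-coupled receptor EDNRA for endothelin differed by 0.30 (SE 0.15), but by -0.21 on its other probe, so its direction is not settled, and its main probe gave 0.20 without control 1. AGTR1, a receptor for angiotensin II, differed by 0.22, and by 0.14 without hypoxia 1, control 2 or control 3. EDNRB, another endothelin receptor, differed by -0.16, between -0.28 without hypoxia 3 and -0.026 without hypoxia 2, and by -0.42 on its other probe.

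Over all tested probes 54.7% were higher, and 8.75% were higher at an unadjusted p under 0.05 in limma. Of 11 interleukin and NF-kB genes linked to CEBPB and NFIL3, 8 were higher, with a median of 0.19, and 1 had an unadjusted p under 0.05. This was NFKBIA, which encodes the inhibitor of NF-kB, at 1.78, 2.76 and 0.94 after hypoxia and at 0.37, 0.67, 0.43 and 0.24 in controls 1 to 4. Its groups did not overlap, hypoxia 2 was highest and hypoxia 3 lowest among the hypoxia arrays, the same order as for CEBPB and NFIL3. It differed by 1.40 (SE 0.38, adjusted p = 0.197 in limma), and the interleukin transcripts IL5 and IL1B by 0.92 (SE 0.40) and 0.40 (SE 0.19). IL5 was dim, at a mean of -6.85 after hypoxia and -7.77 in controls, and its difference was 0.25 with normexp. That of IL1B was 0.22 without hypoxia 1.

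**Figure D4:**
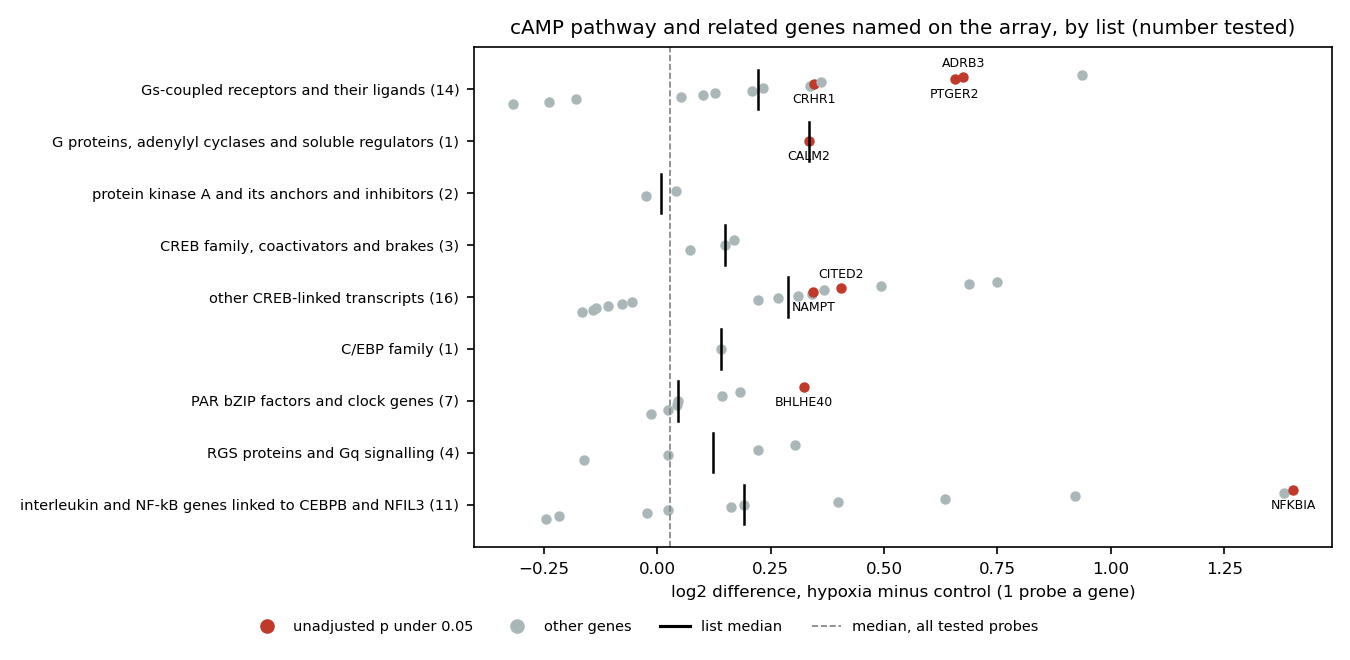
Log2 difference, hypoxia minus control, of the 59 tested genes of the pathway lists, with 1 point a gene, a black bar at each list's median and a dashed line at the median of all tested probes. The 8 named genes in red had an unadjusted p under 0.05 and all lie to the right of 0, with NFKBIA farthest at 1.40. The lists were chosen with earlier results of these data known.

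Of 829 other named genes, those whose level followed each of the 4 most closely over the 7 arrays were found by Pearson's r, which describes 7 points that share 3 slides. For CREM they were ACVR1, an activin and BMP receptor (r = 0.961), GGTA1, a glycosyltransferase (0.955), and PURA, a DNA-binding protein of neurons (0.95). For CEBPB they were TIMP2, a metalloproteinase inhibitor (0.938), IKKBETA, the kinase that releases NF-kB (0.923), and CCN1, a secreted matrix protein (0.884). NFIL3 was followed by ART4, an ADP-ribosyltransferase (0.956), MRPL32, a mitochondrial ribosomal protein (0.948), and IL1RN, the interleukin 1 receptor antagonist (0.932). For RGS2 they were SLC25A33, a mitochondrial carrier (0.930), SLC1A2, a glutamate transporter of astrocytes (0.918), and MT3, a metallothionein of brain (0.914). Of these 12 genes, none passed the adjusted threshold between the groups in limma. IL1RN among them was dim, at a mean of -7.09 after hypoxia and -7.73 in controls. No gene is in more than 1 of these lists, but with only 3 of 829 genes taken for each, this says little about how alike the 4 genes are.

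Other cell types were followed by marker lists, whose level was summed over the list's genes on a linear scale relative to the 75th percentile. All 11 named hypothalamic neuropeptides were well above background on all 7 arrays, with sums of 27.0 to 34.4 after hypoxia and 23.2 to 37.5 in controls. No gene of the neuron and oligodendrocyte lists was named here. Beside the counts below, 54.7% of all tested probes were higher. Of 7 astrocyte markers, 6 were higher, with sums of 108 to 122 against 96.6 to 135. VIM and AQP4 make up most of these sums, at means of 5.45 and 5.77 after hypoxia and 5.94 and 5.52 in controls. SLC1A2, alike to RGS2 above, was higher by 0.76 (SE 0.20, adjusted p = 0.185 in limma), with no overlap. GJA1 was higher by 0.46 (SE 0.14, adjusted p = 0.219 in limma) and SLC4A4 by 0.45 (SE 0.15, adjusted p = 0.245), also with no overlap. GFAP, AQP4 and SLC1A3 were higher with overlapping groups. VIM, the 1 that was lower, differed by -0.49 (SE 0.16, adjusted p = 0.235), with no overlap between groups. Of 6 tested T cell markers, 4 were higher and 2 lower, while the T cell marker CD4 was not well above background on any array. The sums, 1.16 to 1.58 against 0.719 to 0.90, did not overlap. Their largest part is the signal of CD247, at a mean level of 0.072 after hypoxia and -1.10 in controls. The sums are therefore no measure of the list as a whole. The markers did not move together. In limma CD247 differed by 1.17 (SE 0.17, adjusted p = 0.0888), XCL1 by 0.75 (SE 0.15, adjusted p = 0.124) and CD3E by -1.08 (SE 0.22, adjusted p = 0.131), each with no overlap. CD3D differed by -0.53 (SE 0.21, adjusted p = 0.296 in limma). Both microglial markers were higher, with sums of 0.177 to 0.214 against 0.142 to 0.201. All 6 meningeal markers were lower, with sums of 13.2 to 19.9 against 17.9 to 40.2. The part of these cell types in the levels of CREM, CEBPB, NFIL3 and RGS2 was not tested.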

How the data were processed

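Spot intensity was extracted, per the file headers, by Agilent Feature Extraction 10.1.1.1, which subtracts background, corrects spatial trends and replaces signals not above background. The deposited value table holds log2 of that processed intensity, equal within 5.00e-09 on each array, with no scaling between arrays. Its column medians ran from 8.31 to 8.87 (hypoxia 8.69, 8.48 and 8.62; control 8.31, 8.34, 8.87 and 8.60). The values are not centred and carry no direction. Which statistical test the authors ran is not given in the sources.

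From the scanner files, log2 processed intensity minus each array's 75th percentile was used. Control and outlier spots (34 probe values) were dropped and repeat spots averaged. Hypoxia was set against control, for probes clearly over background on 3 or more of 7 arrays, in limma 3.58.1 (R 4.3.3; lmFit and eBayes, 2-sided) with Benjamini-Hochberg adjustment at 0.05. The fit was tested on simulated data. Groups came from the sample titles, and each array is a separate fetus. A gene's main probe is its brightest. Probes were named through RefSeq accessions, gene IDs, symbols and older names of the ARS-UI_Ramb_v3.0 table, which left 13350 without a name, and genome positions are not used here. The 4 genes and all lists were chosen with earlier results of these data known, so their direction is a description and not independent evidence. Genes named were, by rule, the 4 with all probes and the 3 most alike to each by r. Up to 3 per pathway list were named by smallest unadjusted p. SLC1A2 was repeated among the markers, where VIM, AQP4, GJA1, SLC4A4, GFAP, SLC1A3, CD247, XCL1, CD3E and CD3D were added after their values were seen. Alternatives were other scalings, background corrections, filters, the deposited log2 values, slide as a random block, single control slides, a replicate block, leaving out each array, other priors and array weights. Their use on the list genes was added after the data were seen.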

Additional observations from a re-analysis of the deposited data

Results flagged for a closer look

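Each of 29 sets of 4 control values (the tested probes of CREM, CEBPB, NFIL3 and RGS2 and the named genes of the pathway lists) was examined for a fetus standing apart by Dixon's 95% criterion. None did, where chance would flag 1.45, and groups of 3 were not examined.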

How the results depend on the processing

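No result for CREM, CEBPB, NFIL3 or RGS2 turned direction or passed the adjusted threshold in any alternative. The count of probes past an adjusted p of 0.05 over the whole array, 2 as reported, was not stable: it was 0 with the percentile taken over probes seen on all arrays, 0 with no filter on dim probes, 10 with normexp, 10 with the deposited values, 25 with probes seen on all arrays, 232 against controls 1 and 2 alone, 4 against controls 3 and 4 alone, 57 with a trended robust prior, 4 with array weights and 39 at an adjusted p under 0.1. Leaving out 1 array gave 0 to 6, the highest without control 2, 0 without control 1, 3 or 4, and 1 without any 1 hypoxia array. At an unadjusted p under 0.05, limma called 1990 probes as reported, 2022 where the percentile changed, 1947 with no filter, and 1735, 1834 and 2090 without controls 1, 3 and 4. The share of these that were higher was 55.9% as reported, 46.6% with median scaling, 46.1% with quantile normalization and 67.3% with the deposited values.

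With the replicate number as a block the count was 0 (2132 at an unadjusted p under 0.05 in limma). The difference was 0.51 for CREM, 0.74 for CEBPB, 0.68 for NFIL3 and 0.54 for RGS2. These equal the differences without control 4, since control 4 shares its number with no hypoxia array and adds nothing to a blocked difference. The block changed no adjusted call, but CEBPB (SE 0.17) went from an unadjusted p of 0.0557 to 0.00910 in limma, and the RGS2 probes A_70_P012622 and A_70_P012621 came to 0.0395 and 0.0439. Same-numbered arrays deviated together with correlations of 0.121, 0.0876 and 0.107, each the highest for its number among the cross-group pairs, which is a hint from the data and not from the design; the numbers were not treated as pairs.

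Some small list differences turned sign. Over the fits that leave out 1 array, PRKACA ran from -0.21 (without control 4) to 0.13 (without control 1), ATF6 from -0.034 (without control 1) to 0.17 (without control 4), PRKAR1A from -0.0078 (without hypoxia 2) to 0.11 (without hypoxia 3) and PER3 from -0.0025 (without control 3) to 0.29 (without control 2). PRKACA was 0.012 with the deposited values, 0.23 against controls 3 and 4 alone, 0.032 without hypoxia 2 and 0.034 with array weights. ATF6 was -0.11 with quantile normalization and -0.0099 against controls 3 and 4 alone. The limits are 3 and 4 fetuses, 1 time point, and slides that follow the groups. The correlation within slides was estimated at -0.032, which cannot measure a slide effect on the difference, since all hypoxia arrays share 1 slide. CREM and CEBPB signals were low, with 2 CREM probes near background.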
